A study of Caenorhabditis elegans with 32 samples.

Results

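The mRNA levels of 6 Caenorhabditis elegans genes that write, read or erase methylation of lysine 36 of histone H3 (H3K36) are described here in ageing adults without a proliferating germline. The genes are the writers met-1, mes-4 and set-18, the reader mrg-1 and the erasers jmjd-2 and jhdm-1. They were chosen by gene name from the deposited isoform table, and their transcript identifiers were then followed into the other tables. That table names 5 of the 6 genes, with 7 transcripts. The sixth, jhdm-1, was matched through its RefSeq identifiers. Together the 6 genes hold 10 of the 46971 RefSeq transcripts in the gene tables.

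Methyl groups on H3K36 mark the bodies of transcribed genes. One class of methyltransferase travels with elongating RNA polymerase II and leaves trimethylation behind it, as MET-1, the homologue of yeast Set2, does. A second class can maintain the mark without ongoing transcription, as MES-4, an NSD-family enzyme best known from the germline and early embryo, does. Chromodomain proteins such as MRG-1 bind the methylated tail, and Jumonji demethylases remove the mark. The study asked, according to its title, how H3K36 trimethylation relates to variation of gene expression with age and to lifespan.

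Poly-A RNA of whole animals was sequenced in 20 libraries, 2 for each of 10 groups, and 12 chromatin immunoprecipitation samples of H3 and of trimethylated H3K36 were not analysed here. All groups, controls included, shared glp-1(e2141), a temperature-sensitive allele that leaves almost no germline at the 25 °C used. RNA was taken at day 12 or day 2 of adulthood. The groups are animals labelled met-1 RNAi and animals labelled L4440, the usual empty vector of RNA interference (RNAi) by feeding, then double mutants of 1 strain with met-1(n4337) added to glp-1(e2141), their glp-1(e2141) controls, and untreated glp-1(e2141) animals cultured alongside those used for chromatin. Worms were pooled in bulk, and the labels do not say whether the 2 libraries of a group came from separate cultures, so every p-value measures only the spread between these libraries, which may be technical. Neither the stretch of met-1 that the RNAi targets nor the lesion of n4337 was stated.

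Levels are in FPKM, a count of sequenced fragments divided by transcript length and by library size, so that levels of different genes can be compared. Only the 8 RNAi-series libraries have a value of their own. The mutant, control and untreated tables give the authors' single value per age. Tests were made with limma on log2(FPKM + 1) over 18572 transcripts, after each library was centred to one median, with Benjamini-Hochberg adjusted p-values called below 0.05. A change on this scale is therefore relative to the other transcripts and understates changes of low genes. Without centring, the median transcript was 0.48 higher (log2) at day 12 than at day 2 in animals labelled met-1 RNAi and 0.46 higher in L4440 animals. FPKM levels of these 8 libraries are not centred and carry this shift. Whether 2 groups overlap is given as description only. With 2 libraries per group a lack of overlap can easily arise by chance, and its share over all transcripts was not counted. The number of reads behind a value is unknown; from the steps between low FPKM values, library 2 of L4440 animals at day 12 had the fewest, 0.356 times those of library 2 of animals labelled met-1 RNAi at day 12.

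mes-4 had the largest difference of the 6 genes. It was close to absent at day 2 and prominent at day 12 in L4440 animals, and stood much lower at day 12 in animals labelled met-1 RNAi. The age change in L4440 animals passed the test. set-18 rose with age in animals labelled met-1 RNAi, but the call was lost whenever a library of that arm was left out. Its age change was not shown to differ from that in L4440 animals. met-1 itself was not lower in the animals labelled with its RNAi, and the summed mrg-1 level and both demethylases spanned at most 2.01-fold over the 8 libraries.

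**Figure D1:**
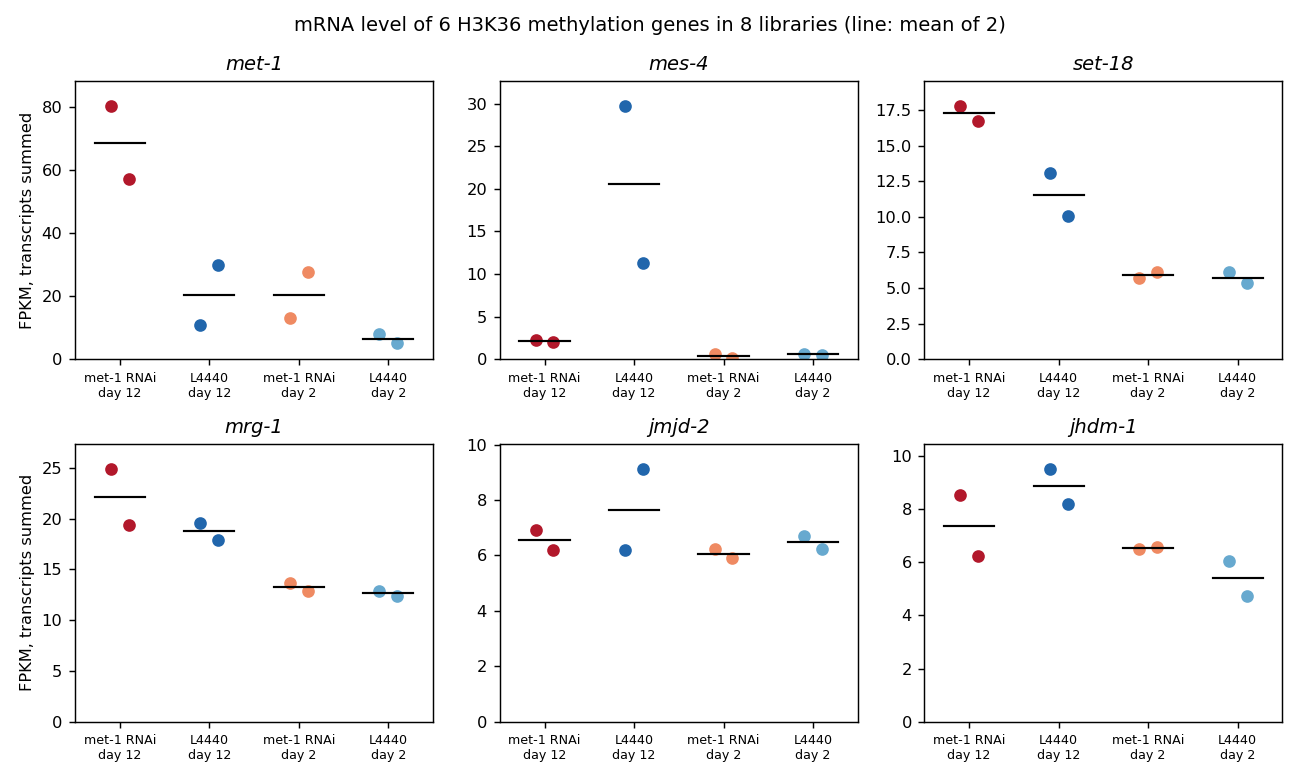
FPKM of each gene, with its transcripts summed, in each of the 8 RNAi-series libraries (y axis, linear from 0; one panel and one scale per gene; x axis, group). Points are libraries and the line is the mean of 2; mes-4 reaches 29.7 and 11.4 FPKM in L4440 animals at day 12 and lies below 1 in all 4 libraries of day 2, while jmjd-2 spans only 5.90 to 9.12.

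met-1 encodes the methyltransferase that RNAi was meant to lower. The 2 transcripts of met-1, NM_058939 and NM_182042, lie at chromosome I:4254476-4264327 in the coordinates of the tables, whose genome build was not stated. At day 12 the summed level was 80.1 and 57.1 FPKM in the libraries labelled met-1 RNAi, against 10.7 and 29.8 FPKM in L4440 libraries. At day 2 it was 13.03 and 27.5 FPKM in the libraries labelled met-1 RNAi, against 7.80 and 5.03 FPKM in L4440 libraries. Both libraries labelled met-1 RNAi thus stood above both L4440 libraries at each age. The cause of this order was not tested. Every direction drawn here between the 2 arms compares libraries by their labels.

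Averaged over both ages, met-1 was 1.63 ± 0.39 higher (log2, SE) in the libraries labelled met-1 RNAi than in L4440 libraries, in the fit on gene sums. This did not pass adjustment over 15850 gene sums (limma, unadjusted p = 0.0063, adjusted p = 0.273). The difference was 1.85 ± 0.55 at day 12 (adjusted p = 0.310) and 1.41 ± 0.55 at day 2 (limma, adjusted p = 1.00), neither past the threshold. The age change of met-1 was 1.27 ± 0.55 in animals labelled met-1 RNAi (adjusted p = 0.152) and 0.83 ± 0.55 in L4440 animals (limma, adjusted p = 0.335).

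Most of the met-1 signal in the RNAi series was assigned to the transcript NM_182042. That transcript had 76.8 and 52.9 FPKM at day 12 in the libraries labelled met-1 RNAi, against 10.7 and 24.1 FPKM in L4440 libraries. Its day 2 values were 7.76 and 27.5 FPKM in the libraries labelled met-1 RNAi, against 5.82 and 2.13 FPKM in L4440 libraries. NM_058939 stayed between 0.00193 and 5.71 FPKM in all 8 libraries. The order of the arms therefore rests on NM_182042, whose difference averaged over both ages was 1.82 ± 0.50 (log2; limma, unadjusted p = 0.0116, adjusted p = 0.384). NM_182042 took 42.4% to 100% of the sum over the 8 libraries. In the authors' pooled values its share moved as widely: 1.81% in mutants and 54.7% in controls at day 12, and 50.5% in mutants and 14.4% in controls at day 2.

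The neighbours of met-1 did not show its order of the arms. C43E11.12, which lies 631 bases from met-1, had 21.1 and 22.97 FPKM at day 12 in the libraries labelled met-1 RNAi, against 19.2 and 29.4 FPKM in L4440 libraries, and the groups overlapped. Its day 2 values were 8.53 and 13.5 FPKM in the libraries labelled met-1 RNAi, against 13.6 and 16.1 FPKM in L4440 libraries. At day 2 these groups narrowly did not overlap and stood in the opposite order to met-1. mus-81, 782 bases away on the other side, encodes a DNA repair nuclease and stood in the opposite order to met-1 at both ages, without overlap. It had 6.23 and 5.86 FPKM at day 12 in the libraries labelled met-1 RNAi, against 9.66 and 7.59 FPKM in L4440 libraries, and 4.85 and 5.501 FPKM at day 2 in the libraries labelled met-1 RNAi, against 6.63 and 6.58 FPKM in L4440 libraries.

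In the pooled tables the summed met-1 level was 4.79 FPKM in met-1(n4337) double mutants and 6.34 FPKM in their controls at day 12. In day 2 animals it was 6.67 FPKM in mutants and 5.41 FPKM in controls. Mutants thus had the lower value at day 12 and the higher one at day 2, with no spread to test either. Untreated animals had 4.68 FPKM at day 12 and 4.66 FPKM at day 2 for NM_058939, the transcript of met-1 that was matched in the isoform table. These pooled values lie below the lowest RNAi-labelled value of 13.03 FPKM and near the L4440 values of day 2, but the tables were normalized separately.

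mes-4 has 1 transcript, NM_073932, at chromosome V:13433422-13437494 in the coordinates of the tables. At day 12 it had 2.18 and 2.00 FPKM in animals labelled met-1 RNAi, against 29.7 and 11.4 FPKM in L4440 animals. At day 2 it had 0.586 and 0.162 FPKM in animals labelled met-1 RNAi, against 0.619 and 0.524 FPKM in L4440 animals. Day 12 libraries were above day 2 libraries in both arms, without overlap, and at day 12 both L4440 libraries were above both libraries labelled met-1 RNAi. The transcript passed the filter of 1 FPKM in 2 libraries through its 4 day 12 libraries alone.

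mes-4 rose with age in L4440 animals by 3.11 ± 0.46 on the log2 scale (limma, adjusted p = 0.0079, higher in 2 of 2 libraries), and mean FPKM was 36.0-fold higher at day 12 than at day 2. It was 1 of 8 member transcripts tested that rose in L4440 animals, where 6.78% of all transcripts tested rose and 11.9% fell. A larger rise was seen in 261 transcripts, or 1.41% of those tested. The call held without each of the 8 libraries in turn, with adjusted p between 0.0078 and 0.0463 (limma), and with no filter on low values (3.01 ± 0.48, limma adjusted p = 0.0107). The size depended on which L4440 library of day 12 was kept: it was 2.45 without library 1 and 3.77 without library 2. Library 2 is the one with the fewest reads by the estimate above, and its mes-4 level was the lower of the 2.

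In animals labelled met-1 RNAi the age change of mes-4 was 0.70 ± 0.46 and did not pass the test (limma, adjusted p = 0.354), although mean FPKM was 5.59-fold higher at day 12. The difference between the 2 age changes was -2.41 ± 0.65 (limma, unadjusted p = 0.0106, adjusted p = 0.593), so a different age response of mes-4 in the 2 arms was not established over all transcripts. At day 12 mes-4 was 2.66 ± 0.46 lower (log2) in animals labelled met-1 RNAi than in L4440 animals. Of the 18572 transcripts tested, 18415 (99.2%) had a more positive difference. The unadjusted p was 0.0013 and the adjusted p 0.131 in limma. The difference was -1.998 without L4440 library 1 of day 12 and -3.32 without library 2, and its adjusted p ranged from 0.0521 to 0.404 over the alternatives tried.

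The pooled tables held low levels of mes-4 at both ages. It was 1.17 FPKM at day 12 and 0.875 FPKM at day 2 in met-1(n4337) double mutants. In their controls it was 0.702 FPKM at day 12 and 0.464 FPKM at day 2, and in untreated animals 0.461 FPKM at day 12 and 0.388 FPKM at day 2. Day 12 was nominally higher in all 3 sets, by 1.33-fold, 1.51-fold and 1.19-fold in FPKM, and the authors' deposited table gives q = 0.714 for the untreated animals. Mutants had 1.66 times the control FPKM at day 12 and 1.88 times at day 2. Taken on FPKM + 1, these ratios were 1.27 and 1.28, where the median transcript had 1.13 at both ages. The highest pooled value, 1.17 FPKM, lay below the lower L4440 value of day 12, 11.4 FPKM, in tables normalized separately.

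Genes beside mes-4 on the chromosome were nearly silent in the same libraries. srd-17, a predicted chemoreceptor gene 727 bases away, reached at most 0.194 FPKM, and col-162, a cuticle collagen gene 4453 bases away on the other side, at most 0.124 FPKM in any of the 8 libraries.

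Transcripts with the profile most like that of mes-4 were looked for over the 8 libraries, by the root mean square distance between centred log2 profiles. The nearest were pals-10 (0.30), pals-11 (0.43) and F26G1.3 (0.48), against a spread of 1.39 of mes-4 around its own mean. pals-10 had 1.60 and 2.08 FPKM at day 12 in animals labelled met-1 RNAi, against 17.8 and 11.7 FPKM in L4440 animals, and 0 FPKM in all 4 libraries of day 2. F26G1.3 had 1.27 and 3.72 FPKM at day 12 in animals labelled met-1 RNAi, against 13.8 and 10.5 FPKM in L4440 animals, and was also listed at 0 at day 2. All 3 transcripts were therefore near 0 at day 2 and highest in L4440 animals at day 12. They were selected for this likeness and it was not tested.

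**Figure D2:**
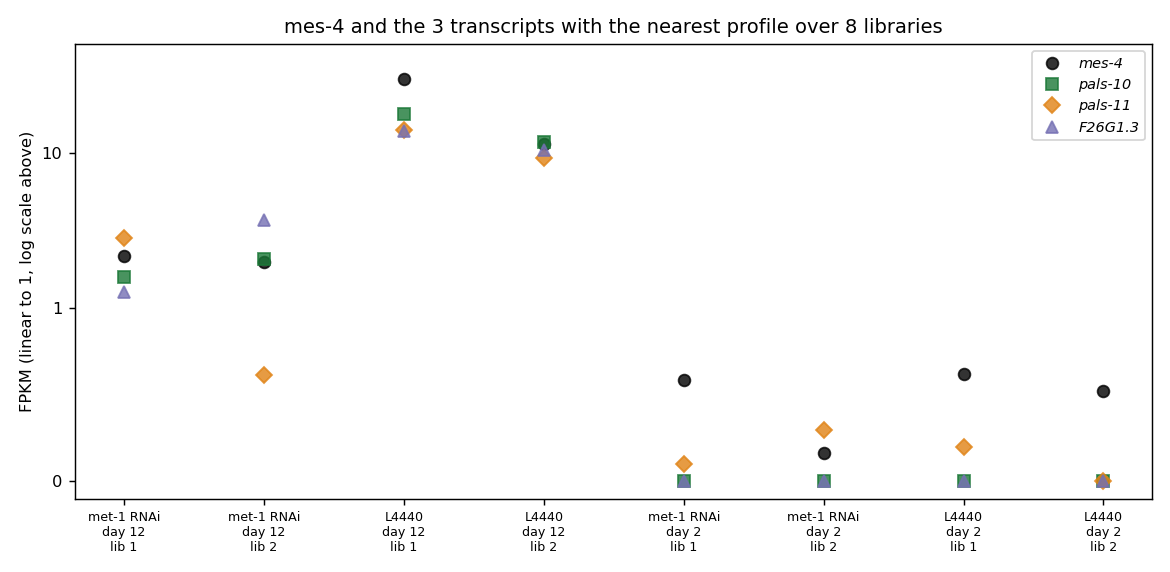
FPKM of mes-4 and of the 3 transcripts with the nearest profile in each of the 8 RNAi-series libraries (y axis, linear up to 1 and logarithmic above; x axis, library; each symbol 1 transcript). All 4 lie between 9.31 and 29.7 FPKM in L4440 animals at day 12, between 0.613 and 3.72 FPKM in animals labelled met-1 RNAi at day 12, and below 1 FPKM at day 2.

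Since mes-4 is known from germ cells, markers of germline and oocytes were read in the same libraries. Of 28 such genes, 16 to 22 were below 1 FPKM in each library. The germ granule gene pgl-1 and the oocyte gene rme-2 were at or near 0 in these libraries. The germ granule genes glh-1 (3.67 to 19.03 FPKM) and glh-4 (2.80 to 8.63 FPKM) and the oocyte gene oma-2 (4.06 to 9.62 FPKM) were present in all 8. The summed level of the list was 88.7 and 263 FPKM at day 12 in animals labelled met-1 RNAi, against 268 and 63.6 FPKM in L4440 animals. The day 2 level was 27.4 and 25.7 FPKM in animals labelled met-1 RNAi, against 261 and 26.1 FPKM in L4440 animals. The 3 high sums come from the meiotic cohesin gene rec-8, with 171, 190 and 235 FPKM in those libraries and 0.492 to 1.23 FPKM in the other 5.

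Without rec-8, left out after its values were seen, the germline sum was 88.3 and 91.8 FPKM at day 12 in animals labelled met-1 RNAi, against 77.6 and 62.7 FPKM in L4440 animals. The day 2 sum was 26.5 and 24.7 FPKM in animals labelled met-1 RNAi, against 25.7 and 24.9 FPKM in L4440 animals. This sum was therefore higher at day 12 in both arms. Its genes did not share 1 order of the arms at day 12: mex-3 had 26.7 and 27.9 FPKM in animals labelled met-1 RNAi, against 10.9 and 10.6 FPKM in L4440 animals, while glh-1 had 12.0 and 10.98 FPKM in animals labelled met-1 RNAi, against 19.03 and 14.6 FPKM in L4440 animals. Of 14 germline transcripts tested, 4 rose in animals labelled met-1 RNAi and 3 in L4440 animals, and none fell. Of all transcripts, 8.35% rose and 12.3% fell in animals labelled met-1 RNAi, and 6.78% rose and 11.9% fell in L4440 animals. pos-1 and mex-3, which encode RNA-binding proteins of oocytes and embryos, rose in both arms. The called transcripts of pos-1 and cpg-1 were below 1 FPKM in every day 2 library and so passed the filter through day 12 libraries alone. The calls of glh-1 in L4440 animals and of cpg-1 and gld-1 in animals labelled met-1 RNAi were lost under some alternatives. A sum of 11 sperm genes was 34.9 and 31.6 FPKM at day 12 in animals labelled met-1 RNAi, against 37.6 and 35.4 FPKM in L4440 animals, and between 4.84 and 7.14 FPKM in all libraries of day 2. Of these genes, 6 to 9 were below 1 FPKM in each library. Much of the day 12 sums came from spe-11, with 17.5 and 15.8 FPKM in animals labelled met-1 RNAi, against 26.7 and 20.8 FPKM in L4440 animals. spe-11 was below 1 FPKM in every day 2 library. In the pooled tables the germline sum without rec-8 was 83.9 FPKM at day 12 and 91.8 FPKM at day 2 in met-1(n4337) double mutants. In their controls it was 51.4 FPKM at day 12 and 30.4 FPKM at day 2, in tables normalized separately. With rec-8 the sums were 343 FPKM at day 12 and 643 FPKM at day 2 in mutants, and 52.4 and 289 FPKM in controls. Of the 28 genes, 13 were below 1 FPKM at day 12 and 6 at day 2 in mutants, against 19 and 18 in controls. The part of germ cells in the mes-4 values was not tested. In whole animals a change in the number of cells of a type cannot be told apart from a change of RNA per cell.

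set-18 encodes a SET and MYND domain methyltransferase reported to dimethylate H3K36 in body wall muscle. Its tested transcript, NM_060371, lies at chromosome I:10590801-10593829 in the coordinates of the tables, and the second, NM_182049, was below 1 FPKM in all 8 libraries. At day 12 the summed level was 17.8 and 16.8 FPKM in animals labelled met-1 RNAi, against 13.1 and 10.1 FPKM in L4440 animals. At day 2 it was 5.72 and 6.15 FPKM in animals labelled met-1 RNAi, against 6.13 and 5.33 FPKM in L4440 animals. In FPKM, which carry the shift of the whole table with age, day 12 was above day 2 in both arms without overlap. The arms overlapped at day 2 and did not overlap at day 12.

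set-18 rose with age in animals labelled met-1 RNAi by 0.91 ± 0.19 on the log2 scale (limma, adjusted p = 0.0227, higher in 2 of 2 libraries). It was 1 of 8 member transcripts tested that rose there, where 8.35% of all transcripts rose and 12.3% fell. The call was lost without each one of the 4 libraries of that arm, with adjusted p between 0.0883 and 0.119 in limma, while the change stayed between 0.85 and 0.96. In L4440 animals the age change was 0.37 ± 0.19 (limma, adjusted p = 0.242). With values as deposited it was 0.89 and passed the test in L4440 animals too (limma, adjusted p = 0.0209). The difference between the age changes was 0.54 ± 0.27 (limma, adjusted p = 0.927), so the change was not shown to differ between the arms.

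At day 12 set-18 was 0.54 ± 0.19 higher in animals labelled met-1 RNAi than in L4440 animals (limma, unadjusted p = 0.0294, adjusted p = 0.419). In the pooled tables set-18 was 16.4 FPKM in met-1(n4337) double mutants and 8.26 FPKM in controls at day 12, and 16.9 FPKM in mutants and 9.99 FPKM in controls at day 2. The mutant value was 1.98 times the control value at day 12 and 1.70 times at day 2, the highest ratio of the 6 genes at day 12. Taken on FPKM + 1, these ratios were 1.88 and 1.63, where the median transcript had 1.13 at both ages. Those tables were normalized separately and hold 1 value each, so the ratio has no test. In the pooled values summed set-18 at day 12 over day 2 was 0.967-fold in mutants, 0.827-fold in controls and 1.05-fold in untreated animals. NM_060371 alone was 0.937-fold, 0.827-fold and 0.977-fold in the same order. In untreated animals NM_182049 was not near 0, with 2.36 FPKM at day 12 and 1.89 FPKM at day 2.

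Since set-18 is reported from muscle, markers of body wall muscle were read beside it. Of 13 muscle transcripts tested, 4 fell in each arm and none rose, where 12.3% of all transcripts fell in animals labelled met-1 RNAi and 11.9% in L4440 animals. Among the 4 was unc-27, a troponin I gene, which fell by 1.84 ± 0.13 in animals labelled met-1 RNAi and fell by 1.88 ± 0.13 in L4440 animals on the log2 scale (limma, adjusted p = 0.00092 and 0.00099). The troponin T gene mup-2 was also among them, but with values as deposited its log2 change was 0.03 in animals labelled met-1 RNAi and -0.10 in L4440 animals and was not called (limma, adjusted p = 0.869 and 0.503). The myosin gene myo-3 had a log2 change of 0.01 in animals labelled met-1 RNAi and 0.20 in L4440 animals and was not called. The part of muscle in the set-18 values was not tested. On the chromosome, lst-1 lies 732 bases from set-18 and ranged from 2.37 to 10.4 FPKM, and T22A3.12, 686 bases away on the other side, was at most 1.46 FPKM.

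mrg-1 encodes the chromodomain protein that binds methylated H3K36, the homologue of mammalian MRG15. Its deposited locus on chromosome III is shared by 36 transcripts in the tables and so gives no position of its own. The summed level of mrg-1 at day 12 was 24.9 and 19.3 FPKM in animals labelled met-1 RNAi, against 19.6 and 17.9 FPKM in L4440 animals. Day 2 libraries had 13.7 and 12.9 FPKM in animals labelled met-1 RNAi, against 12.9 and 12.4 FPKM in L4440 animals. In FPKM the 4 day 12 libraries were above the 4 day 2 libraries.

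After centring, which removes the shift of the whole table, the age change of mrg-1 did not pass the test: it was 0.18 ± 0.15 in animals labelled met-1 RNAi (limma, adjusted p = 0.453) and -0.01 ± 0.15 in L4440 animals (limma, adjusted p = 0.957). With values as deposited it was 0.69 in animals labelled met-1 RNAi (limma, adjusted p = 0.0195) and 0.53 in L4440 animals (limma, adjusted p = 0.0430), beside median shifts of 0.48 and 0.46. Averaged over ages, the arms differed by 0.12, with a 95% interval of -0.15 to 0.38 on the log2 scale. In the pooled tables mrg-1 was 23.1 FPKM at day 12 and 22.1 FPKM at day 2 in mutants, 16.3 FPKM at day 12 and 18.4 FPKM at day 2 in controls, and 12.1 FPKM at day 12 and 12.9 FPKM at day 2 in untreated animals.

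The split of mrg-1 between its 2 RefSeq transcripts was unstable while the sum was steady. NM_001129255 took 99.8% and 66.8% of the sum at day 12 in animals labelled met-1 RNAi, against 53.9% and 99.9% in L4440 animals. At day 2 it took 99.8% and 0.122% in animals labelled met-1 RNAi, against 100% and 37.9% in L4440 animals. Libraries of 1 group thus held nearly opposite splits, and the summed level spanned only 2.01-fold over all 8 libraries. In the 6 pooled values the same transcript took between 59.6% and 76.5%. Neither mrg-1 transcript nor either met-1 transcript was called in any of the 6 comparisons, and the levels and tests given for mrg-1, and for met-1 unless a transcript is named, are those of the sums.

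**Figure D3:**
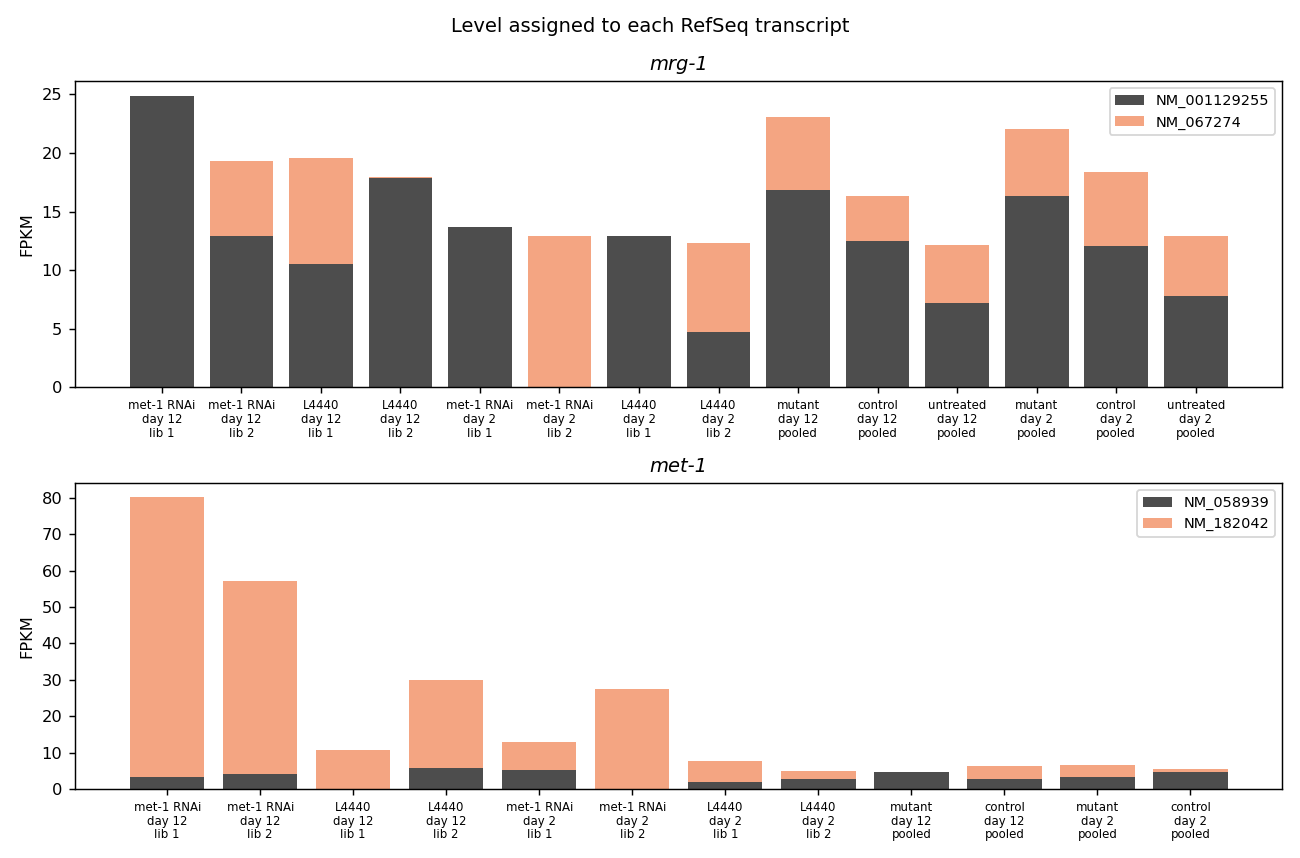
FPKM assigned to each RefSeq transcript of mrg-1 (upper panel) and met-1 (lower panel), stacked, in the 8 RNAi-series libraries and in the authors' pooled values (x axis; y axis linear FPKM from 0). For mrg-1 the transcript NM_001129255 takes between 0.122% and 100% of the bar while bar heights of the 8 libraries stay between 12.4 and 24.9 FPKM; for met-1 the tall bars of the libraries labelled met-1 RNAi at day 12 are 95.9% and 92.6% NM_182042.

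jmjd-2 encodes a KDM4-family demethylase that removes methyl groups from H3K36 and H3K9. It has 1 transcript, NM_064568, whose deposited locus on chromosome II is shared by 195 transcripts in the tables. At day 12 it had 6.94 and 6.19 FPKM in animals labelled met-1 RNAi, against 6.19 and 9.12 FPKM in L4440 animals. Day 2 values were 6.22 and 5.90 FPKM in animals labelled met-1 RNAi, against 6.72 and 6.24 FPKM in L4440 animals. Its 8 values spanned 1.55-fold, the narrowest of the 6 genes, and ages overlapped in both arms.

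Relative to the other transcripts the age change of jmjd-2 was -0.39 ± 0.22 in animals labelled met-1 RNAi (limma, adjusted p = 0.278) and -0.34 ± 0.22 in L4440 animals (limma, adjusted p = 0.349). With values as deposited both signs turned, to 0.10 in animals labelled met-1 RNAi and 0.19 in L4440 animals. In untreated animals jmjd-2 was 3.02 FPKM at day 12 and 4.90 FPKM at day 2. The authors' deposited table gives a log2 fold change of -0.70 with q = 0.00710 for it, the only one of the 9 member transcripts found in that table with a q below 0.05, where 32.3% of all transcripts had such a q. In mutants it was 4.22 FPKM at day 12 and 5.21 FPKM at day 2, and in controls 4.25 FPKM at day 12 and 4.79 FPKM at day 2. Day 12 was thus below day 2 in all 3 pooled tables, by less than 2-fold in each.

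jhdm-1 encodes a KDM2-family demethylase whose mammalian relatives act on dimethylated H3K36. Its tested transcript, NM_066017, lies at chromosome III:6454643-6459346 in the coordinates of the tables, and the second, NM_066018, was below 1 FPKM in all 8 libraries. At day 12 the sum was 8.52 and 6.23 FPKM in animals labelled met-1 RNAi, against 9.50 and 8.19 FPKM in L4440 animals. Day 2 sums were 6.51 and 6.55 FPKM in animals labelled met-1 RNAi, against 6.05 and 4.74 FPKM in L4440 animals. The ages overlapped in animals labelled met-1 RNAi and did not in L4440 animals.

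The age change of jhdm-1 was -0.35 ± 0.21 in animals labelled met-1 RNAi (limma, adjusted p = 0.316) and 0.10 ± 0.21 in L4440 animals (limma, adjusted p = 0.791). The first of these was 0.14 with values as deposited. In the pooled tables jhdm-1 was 6.47 FPKM at day 12 and 7.36 FPKM at day 2 in mutants, 6.84 FPKM at day 12 and 6.79 FPKM at day 2 in controls, and 5.84 FPKM at day 12 and 6.61 FPKM at day 2 in untreated animals. Averaged over ages the arms differed by -0.16 for jmjd-2, with a 95% interval of -0.54 to 0.23, and by -0.03 for jhdm-1, with an interval of -0.40 to 0.35, both on the log2 scale. These intervals leave room for differences of the arms up to the stated bounds.

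For the other members with 1 tested transcript, the nearest profiles lay closer than those of mes-4, and the spread of these members around their own means was smaller. For set-18 they were K09B11.5 (root mean square distance 0.09), mys-1 (0.10) and C08G9.1 (0.10), around a spread of 0.39. For jmjd-2 they were unc-59, R04F11.5 and Y56A3A.30 (0.06 to 0.09, spread 0.23), and for jhdm-1 ZK524.4, W07G4.3 and R10E8.1 (0.05 to 0.07, spread 0.17).

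**Figure D4:**
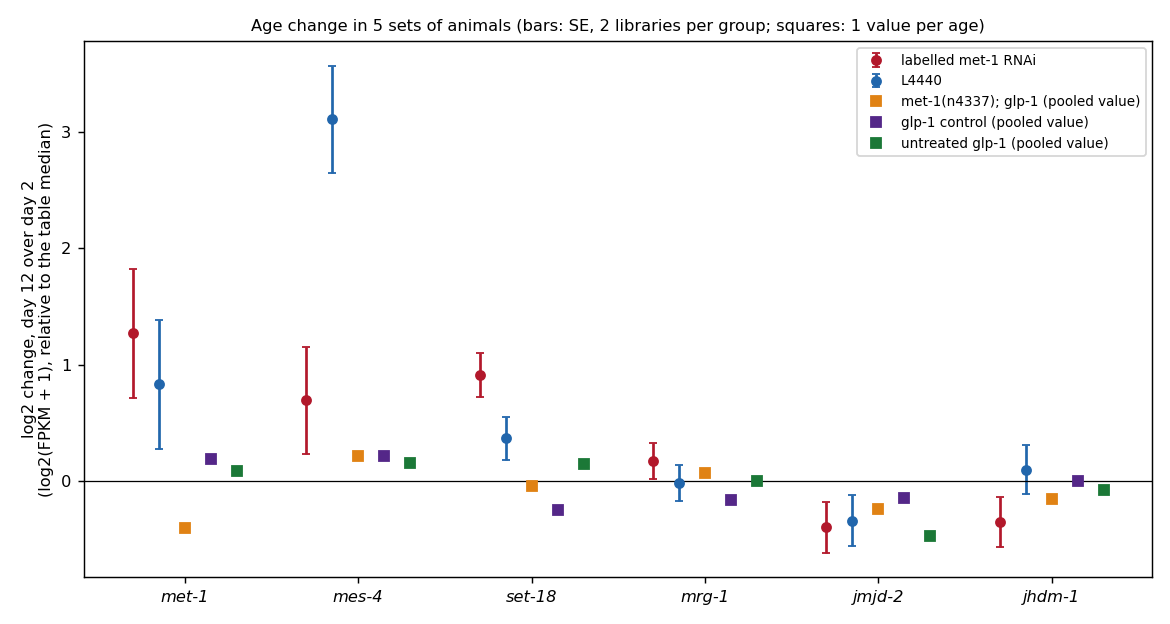
Age change (y axis, log2 of day 12 over day 2 on FPKM + 1, relative to the median of the same table) of the 6 genes (x axis) in 5 sets of animals. Circles with bars are limma estimates with SE from 2 libraries per group, squares are the authors' pooled values with no error; mes-4 in L4440 animals stands at 3.11, and jmjd-2 is below 0 in all 5 sets, a sign that turns in both RNAi-series arms when values are used as deposited.

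Across the comparisons of arms no member transcript passed the test in limma. At day 12, 0 of 8 were called, where 0.307% of all transcripts were called higher in animals labelled met-1 RNAi and 0.194% lower. An unadjusted p below 0.05 in limma was found for 3 of the 8, and for 1919 of all 18572 transcripts tested. At day 2, 0 of 8 were called, with 0.0754% of all transcripts called in each direction. None of the 8 had such an unadjusted p there, against 644 of all transcripts. Averaged over ages, 0 were called, with 0.237% of all transcripts called higher and 0.102% lower. Such an unadjusted p was found for 2 members and for 1608 of all transcripts. For the difference of the age changes, 0 were called, with 0.264% called higher and 0.108% lower. There 1 member and 1057 of all transcripts had such an unadjusted p. In the fit on gene sums neither met-1 nor mrg-1 was called in any of the 6 comparisons. With age, 10.6% of all gene sums rose and 15.4% fell in animals labelled met-1 RNAi, and 8.52% rose and 15.2% fell in L4440 animals. In animals labelled met-1 RNAi against L4440 animals, 0.107% were called higher and 0.101% lower at day 2, and 0.404% higher and 0.202% lower at day 12. Averaged over ages these shares were 0.341% and 0.189%, and for the difference of the age changes 0.29% and 0.114%.

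In the pooled tables no member gene sum differed 2-fold between ages on the log2(FPKM + 1) scale. That fold was passed in either direction by 34.9% of transcripts in mutants, 29.8% in controls and 20.5% in untreated animals. Of single transcripts, NM_182042 of met-1 did pass it, at 0.0866 FPKM at day 12 and 3.37 FPKM at day 2 in mutants, and at 3.47 FPKM at day 12 and 0.781 FPKM at day 2 in controls. Its direction was opposite in the 2 tables.

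The order of levels per length was alike in most groups. mrg-1 had the highest and mes-4 the lowest value of the 6 genes in all 6 pooled values and in L4440 animals at day 2. In L4440 animals at day 12 mes-4 (20.5 ± 12.99 FPKM, SD, n = 2), met-1 (20.3 ± 13.6 FPKM) and mrg-1 (18.7 ± 1.18 FPKM) overlapped at the top. In animals labelled met-1 RNAi met-1 came first, with 68.6 ± 16.3 FPKM at day 12, above mrg-1 without overlap, and 20.3 ± 10.2 FPKM at day 2, overlapping mrg-1. jmjd-2 and jhdm-1 were neighbours that overlapped in both groups of day 12.

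Genes around the pathway, in 5 lists, were read in the same fit, with 79 transcripts tested in all. In each arm 3 of them rose with age and none fell, where 8.35% of all transcripts rose and 12.3% fell in animals labelled met-1 RNAi and 6.78% rose and 11.9% fell in L4440 animals. The share of the lists that was called lay below these shares. An unadjusted p below 0.05 with age in limma was common over all 18572 transcripts tested. It was found for 6302 in animals labelled met-1 RNAi and for 5974 in L4440 animals. Of 19 transcripts of other histone methyltransferases tested, 1 rose in each arm, and of 10 transcripts of other histone demethylases tested, 1 rose in each arm. Of 18 transcripts of RNA polymerase II elongation factors and H3K36 methylation partners, 0 rose in animals labelled met-1 RNAi, with 1 at an unadjusted p below 0.05 in limma, and 1 rose in L4440 animals. Of 18 transcripts of MRG-1, SIN3 and NuA4 complexes and other chromodomain proteins, 1 rose in animals labelled met-1 RNAi and 0 in L4440 animals, with 4 at an unadjusted p below 0.05 in limma. None of 14 transcripts of methyltransferase complex partners was called (limma; 0 had an unadjusted p below 0.05 in animals labelled met-1 RNAi and 1 in L4440 animals). The members' median age change was 0.56 in animals labelled met-1 RNAi and 0.15 in L4440 animals, over 8 tested transcripts, beside -0.01 and -0.07 over all transcripts tested. These medians include the unstable splits of met-1 and mrg-1. Over the 6 gene sums the median was 0.43 in animals labelled met-1 RNAi and 0.21 in L4440 animals, beside -0.01 and -0.06 over all gene sums tested.

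The 4 genes called in these lists were set-30, rbr-2, ctr-9 and mys-1. set-30, a SET and MYND domain gene like set-18, had 38.1 and 34.5 FPKM at day 12 and 13.7 and 15.6 FPKM at day 2 in animals labelled met-1 RNAi (0.76 ± 0.14, limma adjusted p = 0.0170). In L4440 animals it had 33.7 and 36.8 FPKM at day 12 and 16.5 and 14.0 FPKM at day 2 (0.64 ± 0.14, limma adjusted p = 0.0320). rbr-2, an H3K4 demethylase gene, rose by 0.78 ± 0.15 in animals labelled met-1 RNAi (limma adjusted p = 0.0168) and by 0.72 ± 0.15 in L4440 animals (limma adjusted p = 0.0229). ctr-9, a subunit of the Paf1 elongation complex, rose by 0.61 ± 0.15 in L4440 animals (limma adjusted p = 0.0425). mys-1, an acetyltransferase of the NuA4 type, rose by 0.78 ± 0.16 in animals labelled met-1 RNAi (limma adjusted p = 0.0215). The calls of set-30 and ctr-9 in L4440 animals were lost in every fit that left out 1 library. Their log2 changes stayed between 0.55 and 0.72 for set-30 and between 0.53 and 0.70 for ctr-9. Each of the other calls was lost in some of these fits. None of the 79 transcripts was called between the arms at either age in limma. Of them 2 had an unadjusted p below 0.05 at day 12 and 1 at day 2. Over all 18572 transcripts tested, 1919 and 644 had such a p in limma.

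**Figure D5:**
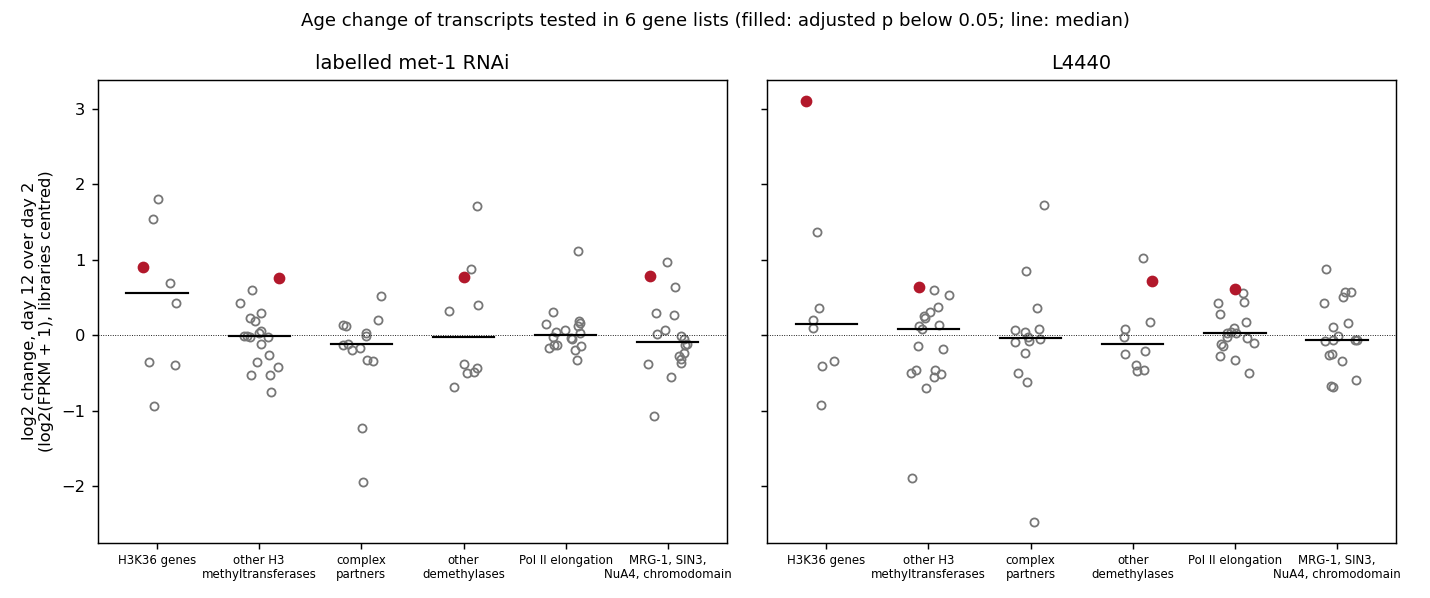
Age change (y axis, log2 of day 12 over day 2 on centred log2(FPKM + 1)) of each tested transcript of the H3K36 genes and of 5 lists around them (x axis), in animals labelled met-1 RNAi (left) and L4440 animals (right). Filled points passed an adjusted p of 0.05 and lines are list medians; mes-4 at 3.11 in L4440 animals lies above every other point, and 3 transcripts of the 5 other lists are filled in each panel.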

How the data were processed

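Members and gene lists were chosen with earlier results of these data known. The RNAi table, deposited by the authors, holds 1 value per library without a named unit; its values were taken as FPKM because Cuffdiff is listed per the submitters' processing notes. The mutant, control and untreated tables hold 1 FPKM value per age, per the file headers. The untreated table also holds the authors' deposited log2 fold change and q-value, made by a test that was not stated. CASAVA 1.8, BWA, TopHat, TopHat2 and Cuffdiff are named per the submitters' processing notes; the sources used here do not give genome build, annotation, strandedness or scaling between libraries, so reads of overlapping or antisense genes may be shared.

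Transcripts with 1 FPKM or more in 2 libraries and an OK status in the 4 status columns were tested in 1 limma 3.58.1 fit (R 4.3.3) of log2(FPKM + 1), each library centred to one median, with trend and 4 group means; 1112 transcripts with another status were left out. A second fit used FPKM summed per gene, and its values are given for met-1 and mrg-1. The fitting code was run on simulated data with known changes in transcripts above a minimum mean level. That run checks the code only and does not cover low levels such as those of mes-4 at day 2. A member transcript of 10 was untested where it missed the filter, which was so for 2. Named genes are the members, list genes called in a comparison (at most 6 per list), and the 3 symbol-bearing transcripts nearest each tested member. RefSeq identifiers matched symbols for 41331 of 46971 transcripts. Alternatives were values as deposited, quantile normalization, a pseudocount of 0.1, no filter, a filter of 5 FPKM, a replicate block and leaving out each library. No pair of libraries held more than 2 equal values above 0. No sequence is shown, as none of the sources used here holds one.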

Additional observations from a re-analysis of the deposited data

How the results depend on the processing

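The age rise of mes-4 in L4440 animals passed the threshold under all 15 alternatives. They count the fit on gene sums, where the mes-4 values are those of its only transcript. mes-4 passed the filter of 5 FPKM only through the L4440 libraries of day 12, the group where it is high. The age rise of set-18 in animals labelled met-1 RNAi kept its direction in all 15 and was lost in 4 of them, each leaving out a library of that arm. Signs of log2 changes that were not called turned as follows. For mrg-1 with age in L4440 animals the values were 0.53 as deposited, 0.011 with quantile normalization and 0.032 with a filter of 5 FPKM. For mrg-1 with age in animals labelled met-1 RNAi it was -0.013 with no filter. For jmjd-2 with age they were 0.098 in animals labelled met-1 RNAi and 0.19 in L4440 animals as deposited, and for jhdm-1 in animals labelled met-1 RNAi 0.14 as deposited. For set-18 between arms at day 2 it was -0.031 with no filter. The muscle gene mup-2, called lower with age, was 0.028 as deposited in animals labelled met-1 RNAi. Leaving out 1 library turned signs within these ranges: -0.26 to 1.14 for the difference of age changes of met-1, -0.071 to 0.055 for mrg-1 with age in L4440 animals, -0.022 to 0.072 for mrg-1 between arms at day 2, -0.42 to 0.062 for jmjd-2 between arms at day 12 and -0.30 to 0.19 for its difference of age changes, -0.027 to 0.22 for jhdm-1 with age in L4440 animals and -0.11 to 0.066 for its average difference of arms, and -0.059 to 0.069 for set-18 between arms at day 2. As-deposited values carry the whole-table shift; for the others the cause was not tested.

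Calls over all transcripts with age numbered 3841 in animals labelled met-1 RNAi and 3470 in L4440 animals, 5835 and 5545 as deposited, and 7054 and 6763 with no filter. Of the centred calls 1550 were higher and 2291 lower in animals labelled met-1 RNAi, and 1260 and 2210 in L4440 animals; as deposited they split 4417 to 1418 and 4193 to 1352, and with no filter 1207 to 5847 and 1131 to 5632. Between arms they numbered 28 at day 2, 93 at day 12, 63 averaged and 69 for the difference of age changes. With a filter of 5 FPKM these were 8, 18, 10 and 8, and with a pseudocount of 0.1 the last 2 were 13 and 14. The replicate block gave 2, 51, 7 and 7, and left mes-4 (adjusted p = 0.0115, limma) and set-18 (adjusted p = 0.0369) called; the differences between libraries of 1 number correlated by -0.06 to 0.13, and the labels tie the numbers to nothing. Leaving out 1 library gave 1777 to 3621 calls with age in animals labelled met-1 RNAi, 2020 to 3243 in L4440 animals, and between arms 1 to 37 at day 2, 11 to 170 at day 12, 8 to 67 averaged and 10 to 73 for the difference; a lone library was then assumed to vary like the other groups. A pair of libraries per group and unknown read numbers limit all of these, most for mes-4 at day 2, which lies below 1 FPKM.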
